A study of Mus musculus with 6 samples.

Results

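Saa1, Saa2, Saa3, Lcn2, Hp, Lrg1 and Orm1, genes that encode secreted proteins of the acute phase, were followed across 3 culture media in a mouse fibroblastic reticular cell (FRC) line. They are 7 of 55367 gene symbols with read counts, taken by name, and they were picked because earlier results of the same libraries had shown several of them far higher in one medium. Their own differences are therefore given as a description, without p-values. FRCs are the fibroblasts that build the conduit network of lymph nodes. The cells were kept for 96 h in medium conditioned by 4T1 cells (2 libraries), by 67NR cells (2 libraries) or, as control, by the FRC line itself (2 libraries), with fresh medium every 48 h. All media were conditioned for 24 h in plain RPMI and then given 2% serum and antibiotics. 4T1 and 67NR are mouse mammary carcinoma lines of common origin, known as metastatic and as non-metastatic. Each group is 1 cell line in 1 type of medium, so no lymph node, blood or liver was present. No group had unconditioned medium, so factors that tumour cells release, missing FRC factors and used-up nutrients cannot be told apart.

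The acute-phase response is the rapid change in plasma proteins during infection, injury or inflammation. In the liver, its main source, IL-6 family cytokines act through gp130, JAK kinases and STAT3, and IL-1 and TNF act through NF-kB, while C/EBP factors join both routes at the promoters of the target genes. Stromal, epithelial and myeloid cells outside the liver also make several of these proteins, most of all serum amyloid A3 and lipocalin 2.

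Depth, replicates and identity of the cells set the scale for all values. Total counts were 14.5 and 18.2 M in the 4T1 libraries, 21.8 and 20.9 M in the 67NR libraries, and 19.3 and 13.6 M in the control libraries (M, 1e6 counts). A single count therefore stood for 0.0463 to 0.0743 CPM (counts per 1e6, on library totals with TMM scaling). Across genes, the Pearson correlation of log CPM was at least 0.992 within a medium and at most 0.979 between media. Whether both libraries of a medium came from separate cultures is not in the labels. The spread may thus be technical, and p-values speak only of the spread between these samples. In these bulk libraries, fewer cells of a kind and less RNA per cell cannot be told apart. Of 12 stroma markers, Pdpn, Pdgfra, Pdgfrb, Vcam1, Il33 and Ltbr were present in all 6 libraries, while Ccl19, Ccl21a, Cxcl13 and Thy1 had 0 counts in all.

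Of the 7 genes, 6 passed the filter on low counts, Lcn2 in every library and the other 5 through the 4T1 libraries, and Orm1 did not. In GENCODE M21 (GRCm38, the assembly of mm10) Saa3 (chromosome 7, 46711998 to 46715700, minus strand), Saa1 (chromosome 7, 46740497 to 46742980, minus strand) and Saa2 (chromosome 7, 46751790 to 46754313, plus strand) lie in one cluster. Saa4 and the pseudogene Saa-ps lie between Saa3 and Saa1, and Saa1 and Saa2 point away from each other across 8809 bp. The other genes lie apart: Lcn2 on chromosome 2 (32384633 to 32388252, minus strand), Hp on chromosome 8 (109575128 to 109579172, minus strand), Lrg1 on chromosome 17 (56119678 to 56122001, minus strand) and Orm1 on chromosome 4 (63344560 to 63348163, plus strand). None of the 7 overlaps another annotated gene.

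Promoter sequences were looked up because the genes moved together across the media. RefSeq (GRCm38.p6) gave 250 bases before to 50 after the start for 5 of the 7, printed here 5′ to 3′ on the strand of the gene. They are Saa3 at chr7:46715627-46715926 (minus strand), Saa1 at chr7:46742931-46743230 (minus strand), Saa2 at chr7:46751583-46751882 (plus strand), Lcn2 at chr2:32387690-32387989 (minus strand) and Lrg1 at chr17:56121897-56122196 (minus strand). The RefSeq starts of Saa2, Saa3, Lcn2 and Lrg1 lie inside the GENCODE genes. Capitals mark matches, on either strand, to a C/EBP motif (TTGCNNAA), an IL-6 response motif known as type II (CTGGGA) and a TATA motif (TATAAA).
Saa3: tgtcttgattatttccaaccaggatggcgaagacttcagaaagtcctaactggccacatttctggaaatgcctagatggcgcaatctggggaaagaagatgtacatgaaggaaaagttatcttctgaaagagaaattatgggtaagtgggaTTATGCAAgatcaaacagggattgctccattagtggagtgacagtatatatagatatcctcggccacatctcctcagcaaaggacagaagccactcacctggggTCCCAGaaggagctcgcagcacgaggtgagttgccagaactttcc
Saa1: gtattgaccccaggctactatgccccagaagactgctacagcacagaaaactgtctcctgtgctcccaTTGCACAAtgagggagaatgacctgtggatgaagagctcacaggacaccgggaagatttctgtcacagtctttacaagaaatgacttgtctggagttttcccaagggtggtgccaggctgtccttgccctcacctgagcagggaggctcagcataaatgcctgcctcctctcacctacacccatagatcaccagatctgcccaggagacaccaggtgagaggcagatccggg
Saa2: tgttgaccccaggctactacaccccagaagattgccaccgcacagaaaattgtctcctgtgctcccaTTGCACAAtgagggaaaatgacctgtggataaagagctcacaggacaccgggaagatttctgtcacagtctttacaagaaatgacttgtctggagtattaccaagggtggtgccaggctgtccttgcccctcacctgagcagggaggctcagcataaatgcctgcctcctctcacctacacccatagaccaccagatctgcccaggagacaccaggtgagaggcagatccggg
Lcn2: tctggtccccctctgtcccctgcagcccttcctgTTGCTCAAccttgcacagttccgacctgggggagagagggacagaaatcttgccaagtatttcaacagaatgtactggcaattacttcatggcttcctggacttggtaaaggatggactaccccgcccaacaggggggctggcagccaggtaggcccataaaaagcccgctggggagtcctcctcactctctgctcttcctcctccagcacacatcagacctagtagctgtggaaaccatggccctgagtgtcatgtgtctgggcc
Lrg1: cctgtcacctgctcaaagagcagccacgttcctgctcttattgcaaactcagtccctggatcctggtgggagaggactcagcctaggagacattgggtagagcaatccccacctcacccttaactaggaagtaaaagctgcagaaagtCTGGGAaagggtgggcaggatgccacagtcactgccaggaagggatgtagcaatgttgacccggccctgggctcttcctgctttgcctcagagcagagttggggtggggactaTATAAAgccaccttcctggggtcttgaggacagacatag

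The C/EBP motif stood in 4 of the 5 promoters, in Saa1 at -182, in Saa2 at -183, in Lcn2 at -216 and in Saa3 at -99, there on the minus strand (first base of the match, with the base before the start at -1). It stood in 10.8% of 32851 promoters of the same length. The Saa1 and Saa2 matches are the same letters in near-identical windows, so they do not count as separate cases. The type II motif stood in Lrg1 at -102 and in Saa3 at 6, against 31.8% of all promoters. The TATA motif stood in Lrg1 at 12, against 13.6% of all. Neither a STAT motif (TTCNNNGAA, 8.3% of all promoters) nor an NF-kB consensus (8.46% of all) had these letters in the 5 windows. None of these motifs overlapped another in the windows shown. The motifs were chosen after the sequences had been seen, and a match is only a match of letters. The Saa1 and Saa2 promoters were 95.3% identical (287 of 301 aligned positions), whereas the other 9 pairs, Saa3 with Saa1 included, had 48.9 to 54.2% identical positions in a global alignment.

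Lcn2 encodes lipocalin 2, which binds bacterial siderophores and so withholds iron from microbes. It had 2563 and 2662 CPM in 4T1 replicates 1 and 2, against 1.76 and 2.34 CPM in the 67NR libraries and 2.02 and 1.86 CPM in the control libraries. Both 4T1 libraries lay far above the other 4, and the 67NR and control libraries overlapped. Lcn2 was log2 10.38 higher in 4T1 than in control medium (SE 0.12) and log2 10.32 higher in 4T1 than in 67NR medium (SE 0.11). Between 67NR and control medium the log2 difference was 0.06, with an interval of -0.37 to 0.50.

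Saa3 encodes serum amyloid A3, the form made mostly outside the liver in mice. It had 876 and 861 CPM in the 4T1 libraries, 0.232 and 0.341 CPM in the 67NR libraries and 0.26 and 0.52 CPM in the control libraries. These low values stand on 5 and 7 counts in both 67NR and control medium. The 4T1 libraries stood apart from the other 4, and the 67NR libraries overlapped the control libraries. The log2 difference was 11.18 for 4T1 against control (SE 0.14), 11.54 for 4T1 against 67NR (SE 0.14) and -0.36 for 67NR against control (interval -1.39 to 0.67).

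Hp encodes haptoglobin, the plasma protein that captures free haemoglobin. It had 197 and 184 CPM in the 4T1 libraries, 0.463 and 0.681 CPM in the 67NR libraries, and 0.311 and 0 CPM in the control libraries. The 3 media did not overlap in Hp, although the order of 67NR above control rests on 24 counts against 6. Hp was log2 9.97 higher in 4T1 than in control medium (SE 0.21) and log2 8.37 higher in 4T1 than in 67NR medium (SE 0.17). The difference between 67NR and control was 1.60 on the log2 scale, with an interval of 0.21 to 2.99 in the fit and a ratio of 3.11 by counts alone (1.24 to 9.29). The control libraries decide this value. Without control replicate 1 the other control library has 0 counts and the fitted difference was log2 6.36, and without control replicate 2 it was log2 0.86. For 4T1 against control the same omissions gave log2 14.72 and 9.23.

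**Figure D1:**
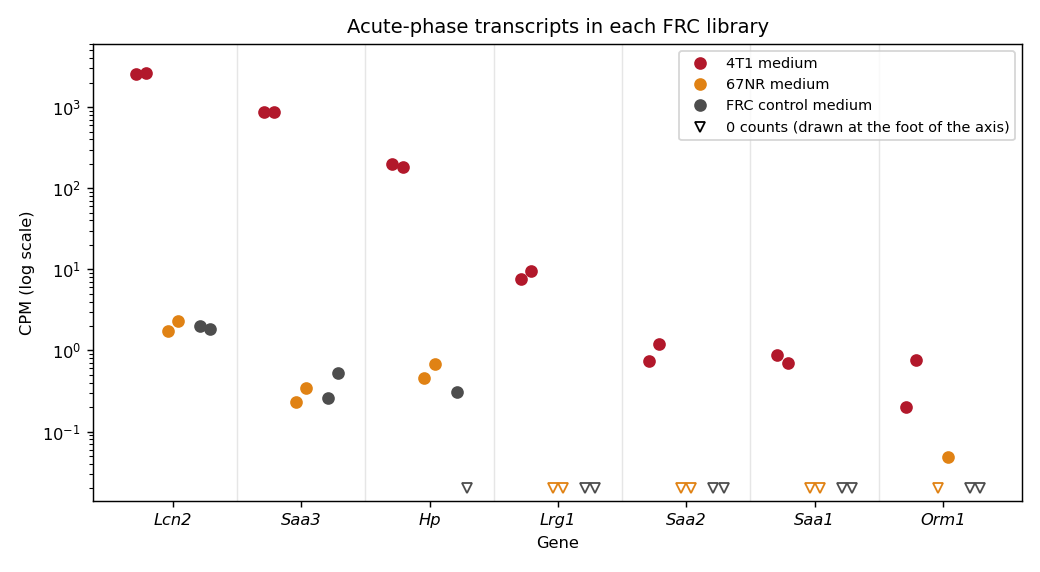
CPM (log axis) of Lcn2, Saa3, Hp, Lrg1, Saa2, Saa1 and Orm1, from left to right, in each of the 6 libraries, with 4T1 medium left of 67NR medium and control medium. Each point is a library, and open triangles at the foot of the axis are libraries with 0 counts. Lcn2 reached 2563 and 2662 CPM in 4T1 medium and stayed at or under 2.34 CPM elsewhere, and Lrg1, Saa1 and Saa2 had counts in the 4T1 libraries alone.

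Lrg1, Saa1, Saa2 and Orm1 were read at low depth and in the 4T1 libraries almost alone. Lrg1 encodes leucine-rich alpha-2-glycoprotein, a plasma protein known in mice to modify TGF-beta signalling in blood vessels. It had 112 and 175 counts in 4T1 replicates 1 and 2 and 0 in the other 4 libraries. The mean was 8.55 ± 1.39 CPM in 4T1 medium (SD, n = 2), while 0 counts over a group leave room for as much as 0.0712 CPM in 67NR and 0.0917 CPM in control medium. Lrg1 was therefore at least 94.4-fold higher in 4T1 than in control medium and at least 122-fold higher in 4T1 than in 67NR medium. These limits take the 4T1 counts as read, and, like all intervals of counts here, cover counting error only.

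Saa1 and Saa2 encode the circulating serum amyloid A proteins, which travel on high-density lipoprotein. Saa1 had 13 and 13 counts in the 4T1 libraries, and Saa2 had 11 and 22. Both had 0 counts in the 67NR and control libraries. Saa1 was at least 8.55-fold and Saa2 at least 10.9-fold higher in 4T1 than in control medium. Over 67NR medium the limits were at least 11.01-fold for Saa1 and at least 13.98-fold for Saa2. The split between both genes is uncertain, because 31.1% of the 50-base words of Saa1 transcripts also occur in Saa2, and 30% of those of Saa2 occur in Saa1. Added together they had 24 and 35 counts in the 4T1 libraries. Only 0.346% of the 50-base words of Saa3 occur in Saa1 and none in Saa2. Lcn2, Hp and Lrg1 shared none with the Saa and Orm genes or with each other.

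Orm1 encodes alpha-1-acid glycoprotein, a plasma carrier of lipophilic compounds. It had 3 and 14 counts in 4T1 replicates 1 and 2, 0 and 1 in the 67NR libraries and 0 in both control libraries. Its 17 counts over both 4T1 libraries were at least 5.59-fold above the floor of 3 counts in control medium, although 4T1 replicate 1 alone, at 0.203 CPM, stood closer to that floor of 0.0917 CPM. Over 67NR the ratio was 21.6, with a counting interval of 3.39 to 903. Replicate 2 had 3.76 times the CPM of replicate 1, a wider spread than the 0.806 to 1.61 of the other 6 genes in 4T1 medium. Its neighbours Orm2 and Orm3 had 6 and 5 counts and 8 and 10 counts in the 4T1 libraries, and at most 5 counts in any other library. Orm1 shares 20.4% of its 50-base words with Orm2 and 2.2% with Orm3, so these few reads cannot be placed with certainty. Saa4, the constitutive member of the serum amyloid A cluster, had 2 and 3 counts in the 4T1 libraries and 0 in the other 4.

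Levels of different genes were compared per length, as CPM per kb of the longest CCDS transcript. On this scale Lcn2 averaged 2855 ± 76.8, Saa3 1565 ± 18.9, Hp 142 ± 6.65, Lrg1 6.07 ± 0.985, Saa2 1.49 and Saa1 1.3 in 4T1 medium (SD, n = 2). The 4T1 libraries thus kept the same order for the upper 4, and Saa1 and Saa2 changed places between the 2 libraries. Lcn2 ranked 6 and 5 among 14741 genes in 4T1 replicates 1 and 2, where it had ranked 11362 and 10844 in the 67NR libraries and 11112 and 11223 in the control libraries. Saa3 ranked 23 in both 4T1 libraries and Hp ranked 574 and 573. Per length, Lcn2 stood 1.77 and 1.87 times above Saa3 and 19.1 and 21.2 times above Hp in the 4T1 libraries. The choice of length matters for these levels. With all annotated exons merged, retained introns included, Lcn2 ranked 52 and 38 and Saa3 ranked 209 and 191, while Hp ranked 530 and 531. Lcn2 then stood 2.91 and 3.07 times above Saa3 and 7.96 and 8.84 times above Hp in the 4T1 libraries, and Saa1 averaged 0.32 and Saa2 0.386 CPM per kb in 4T1 medium. That length was tried after the data had been seen. Summed over the 7 genes, the 4T1 libraries held 3645 and 3720 CPM, the 67NR libraries 2.46 and 3.41 CPM and the control libraries 2.6 and 2.38 CPM. Lcn2 alone gave 70.3 and 71.6% of these counts in the 4T1 libraries.

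By edgeR's quasi-likelihood test with Benjamini-Hochberg adjustment over 15055 genes (threshold 0.05), all 6 tested genes were called higher for 4T1 against control, where 39.1% of all tested genes were called and 19.9% were called higher. All 6 were also called higher for 4T1 against 67NR, where 43.4% of all genes were called and 23.5% higher. For 67NR against control 0 of 6 were called, against 27.6% of all genes. Saa1, Saa2 and Lrg1 had 0 counts in every library of both these media, so they could be neither called nor free of overlap. The shares of the 6 genes in this comparison were thus in part fixed by the choice of genes. There 1 gene, Hp, had an unadjusted p under 0.05, and DESeq2 and limma-voom called 0 as well. The libraries of both groups did not overlap for 6 of 6 genes in 4T1 against control (67.4% of all genes), for 6 of 6 in 4T1 against 67NR (70.1%) and for 1 of 6 in 67NR against control (67.6%). These counts are a description, since the genes were chosen on the 4T1 comparisons and all but Lcn2 passed the filter through the 4T1 libraries. The comparisons also share libraries: both tumour media are set against the same control libraries, and both comparisons of 4T1 medium use the same 4T1 libraries.

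**Figure D2:**
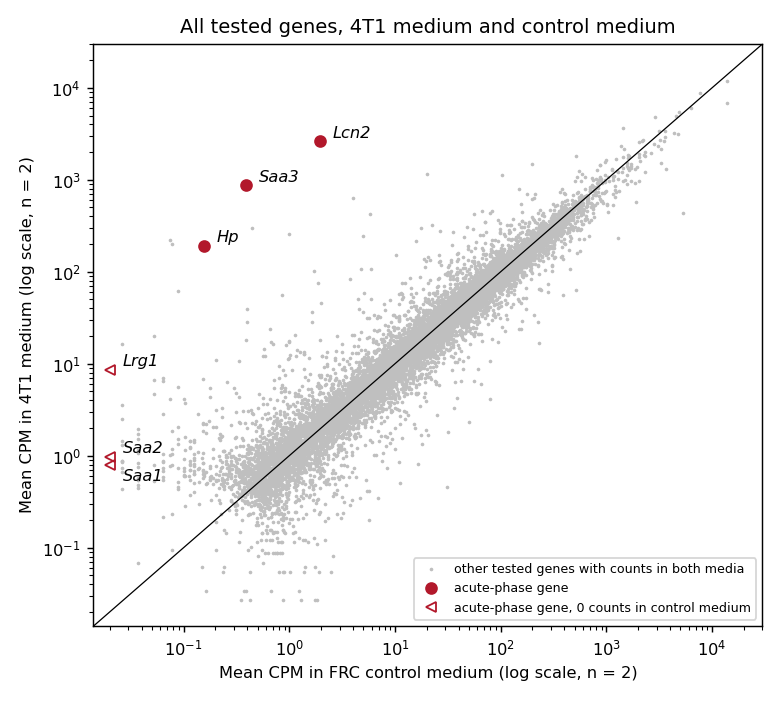
Mean CPM in 4T1 medium (vertical log axis) against control medium (horizontal log axis), each grey point a tested gene with counts in both media. The 6 tested acute-phase genes are named in red, those with 0 counts in control medium as open triangles at the left edge. Lcn2, Saa3 and Hp, with log2 differences of 10.38, 11.18 and 9.97, lie far above the line of equal levels.

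Genes with the most similar course over the 6 libraries were sought among 10272 tested genes of at least 10 CPM in their highest group, by the root mean square difference of centred log2 CPM (prior count 2). Serpina3n, an acute-phase inhibitor of serine proteases, was nearest to both Lcn2 (difference 0.519) and Saa3 (0.655). For both, Wfdc17 and Wfdc21, which encode small secreted proteins with a whey acidic protein domain, came next. Hp was nearest to Wfdc21 (0.53), Wfdc17 (0.751) and Steap4 (0.912), a metalloreductase. Wfdc21 had 297 and 303 CPM in the 4T1 libraries, 1.02 and 1.41 CPM in the 67NR libraries and 0.519 and 0.372 CPM in the control libraries. Lrg1 was nearest to the Ly6 genes Ly6c1 (0.163), Ly6a (0.205) and Ly6c2 (0.398). Saa1 was nearest to Casp4, Jak2 and Gm7361, and Saa2 to Bcl3, Gfpt2 and Jak2. The prior count flattens courses with few counts outside 4T1 medium, such as those of Lrg1, Saa1 and Saa2, with 4 of 6 libraries at 0. Saa3 had 12 counts in 67NR and 12 in control medium, and Hp had 24 and 6. Among the neighbours, Serpina3n had 7 and 2 counts there, Wfdc17 14 and 3, and Steap4 12 and 3. The differences given for these genes therefore depend on the prior count too. In the fit, Serpina3n was log2 11.66 higher in 4T1 than in control medium, against 10.38 for Lcn2. Copies of Serpina3, Wfdc and Ly6 genes are similar in sequence, so reads could be split among them.

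Other acute-phase proteins were listed next, together with their inducers, signalling factors and receptors, 79 genes in all, of which 67 had counts and 56 were tested. Of these 56, 41 rose and 4 fell in 4T1 against control medium (80.4% called, against 39.1% of all genes, with a median log2 difference of 1.10 against 0.01 over all genes). In 4T1 against 67NR medium 38 rose and 9 fell (83.9%, against 43.4% of all genes, median 0.97 against 0.03). In 67NR against control medium 18 rose and 3 fell (37.5%, against 27.6% of all genes, median 0.16 against 0.00). The lists were drawn up with earlier results of these libraries known, so these counts, and the p-values printed for listed genes, are descriptions too. Several of the acute-phase proteins listed also passed the filter through the 4T1 libraries alone.

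**Figure D3:**
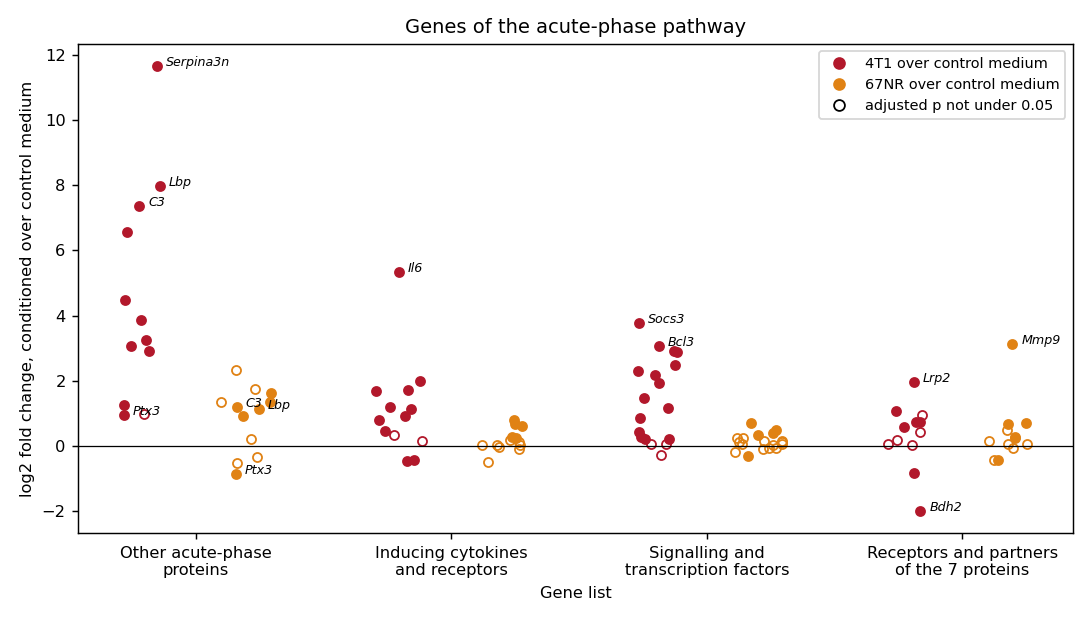
Log2 fold change (vertical axis) of each tested gene of the 4 lists (horizontal axis) in 4T1 medium (red) and 67NR medium (orange) over control medium, with filled points past the adjusted threshold of 0.05. Genes with 0 counts in one group are left out, and the value of Serpina3n stands on 2 control counts and depends on the prior count. In 4T1 medium Lbp (log2 7.98) and C3 (log2 7.36) stand above Il6 (log2 5.33) and Socs3 (log2 3.78).

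Of 25 other acute-phase proteins listed, 20 had counts and 13 were tested. Crp, Apcs, Fga, Fgb and Hamp had 0 counts in every library. Of the 13 tested, 12 rose and none fell in 4T1 against control medium (92.3% called, against 39.1% of all genes, median log2 3.87). In 4T1 against 67NR medium 12 rose and none fell as well (92.3%, against 43.4% of all genes, median log2 2.86). Orm3, Serpina3m, Serpina3n, Serping1, Itih4 and Hpx passed the filter on low counts through the 4T1 libraries alone. The shares and medians of both 4T1 comparisons are therefore in part set by the filter. Serpina3n had 205 and 235 CPM in the 4T1 libraries, 0.185 and 0.146 CPM in the 67NR libraries, and 0 and 0.149 CPM in the control libraries. Its 7341 counts in 4T1 against 2 in control medium gave a ratio of 3622, with a counting interval of 1002 to 29916. Serpina3m, a related inhibitor, was at least 35.5-fold higher in 4T1 than in control medium and at least 45.8-fold higher than in 67NR medium. Lbp, which hands bacterial lipopolysaccharide to CD14 and TLR4, had 240 and 273 CPM in the 4T1 libraries, 1.48 and 3.02 CPM in the 67NR libraries and 1.09 and 0.892 CPM in the control libraries. C3, the central protein of complement, had 593 and 691 CPM in the 4T1 libraries, 8.94 and 8.86 CPM in the 67NR libraries and 3.37 and 4.61 CPM in the control libraries. For both genes the 4T1 libraries were far above the rest and the 67NR libraries above the control libraries.

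Of the same 13 genes, 5 rose and 1 fell in 67NR against control medium, with a median log2 difference of 1.14 (46.2% called, against 27.6% of all genes). C4b, a complement component of the classical route, averaged 11.6 CPM in 67NR and 3.76 CPM in control medium, a rise of log2 1.62. Cp, the copper-carrying ferroxidase ceruloplasmin, averaged 498 CPM in 67NR and 196 CPM in control medium (log2 1.34). C3 rose by log2 1.19. Lbp rose by log2 1.14 (edgeR quasi-likelihood, Benjamini-Hochberg adjusted p = 0.0313), but lost its call without 67NR replicate 2, without either control library, in limma-voom and in DESeq2 (adjusted p = 0.0612 to 0.313). Ptx3, the long pentraxin, was named after its values were seen. It fell by 0.85 on the log2 scale in 67NR against control medium and rose by log2 0.94 in 4T1 against control medium, with 462 and 404 CPM in the 4T1 libraries, 118 and 132 CPM in the 67NR libraries and 214 and 237 CPM in the control libraries.

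Among the inducing cytokines and their receptors, 9 of 13 tested genes rose and 2 fell in 4T1 against control medium (84.6% called, against 39.1% of all genes). In 4T1 against 67NR medium 8 rose and 3 fell (84.6%, against 43.4%), and in 67NR against control medium 5 rose and none fell (38.5%, against 27.6%). Il6, the main inducer of the acute phase in liver, had 69.8 and 81 CPM in the 4T1 libraries, 1.48 and 1.17 CPM in the 67NR libraries and 1.82 and 1.93 CPM in the control libraries. It was higher in both 4T1 libraries than in any other, by log2 5.33 over control (SE 0.14, edgeR quasi-likelihood, Benjamini-Hochberg adjusted p = 1.69e-11) and by log2 5.82 over 67NR. Il6 was listed with earlier results of these libraries known, so this p-value is a description and not a test of a new gene. The log2 difference of -0.49 between 67NR and control did not pass (adjusted p = 0.191 by the same edgeR quasi-likelihood test). Il1b, Tnf and Osm, which encode other inducers, had 0 counts in all 6 libraries. Other cytokines of the list, named after their values were seen, had counts. Clcf1 had 47.2 and 53.4 CPM in the 4T1 libraries, 23.1 and 22.1 CPM in the 67NR libraries and 22.3 and 22.1 CPM in the control libraries. Lif had 7.3 and 6.48 CPM in the 4T1 libraries and 5.92 and 4.98 CPM in the control libraries. Il11 and Il1a had at most 6 counts in any library.

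Il6ra, the IL-6 binding chain, averaged 17.9 CPM in 4T1, 16.5 CPM in 67NR and 9.47 CPM in control medium, and rose in both tumour media against control. Il6st, which encodes gp130, averaged 1077 CPM in 4T1, 612 CPM in 67NR and 627 CPM in control medium, a rise of log2 0.78 in 4T1 against control. Osmr, the oncostatin M receptor, averaged 701 CPM in 4T1, 251 CPM in 67NR and 213 CPM in control medium (log2 1.72 for 4T1 against control). Il1r1, the signalling receptor for IL-1, had a log2 fold change of 2.00 in 4T1 against control and of 0.68 in 67NR against control. Il17ra rose by log2 1.70 in 4T1 against control. Lifr, the receptor of leukaemia inhibitory factor, had another course. It rose by log2 0.62 in 67NR against control and fell by 0.47 on the log2 scale in 4T1 against 67NR. The log2 difference of 0.16 in 4T1 against control did not pass (edgeR quasi-likelihood, Benjamini-Hochberg adjusted p = 0.121), but was called without 4T1 replicate 1 (log2 0.23, adjusted p = 0.0197).

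Of 18 signalling and transcription factors tested, 15 rose and none fell in 4T1 against control medium (83.3% called, against 39.1% of all genes). In 4T1 against 67NR medium 13 rose and 2 fell (83.3%, against 43.4%). In 67NR against control medium 4 rose and 1 fell, a share of 27.8% that is near the 27.6% of all genes. Socs3, the feedback inhibitor that STAT3 induces, had 211 and 224 CPM in the 4T1 libraries, 19.6 and 17.5 CPM in the 67NR libraries and 17.1 and 14.3 CPM in the control libraries (log2 3.78 for 4T1 against control). Jak2 averaged 421 CPM in 4T1 and 55.8 CPM in control medium, a rise of log2 2.91. Stat3 itself averaged 336 CPM in 4T1 and 185 CPM in control medium, a rise of log2 0.86. Of the NF-kB cofactors, Nfkbiz, which encodes IkB-zeta and is needed in mice for the induction of Lcn2, rose by log2 2.89 and Bcl3 rose by log2 3.08.

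The C/EBP genes did not move as one. Cebpb had 135 and 120 CPM in the 4T1 libraries, 29.4 and 28 CPM in the 67NR libraries and 25 and 26.6 CPM in the control libraries, and rose by log2 2.31 in 4T1 against control. Cebpd had 373 and 351 CPM in the 4T1 libraries, 78.2 and 73.4 CPM in the 67NR libraries and 88.7 and 100.4 CPM in the control libraries. It rose by log2 1.94 in 4T1 against control and fell by 0.32 on the log2 scale in 67NR against control, a call lost without 67NR replicate 2 and without control replicate 2 (edgeR adjusted p = 0.107 and 0.123). Cebpa, the form that dominates in resting liver, rose by log2 0.71 in 67NR against control, without a call in 4T1 against control (log2 0.06). In 67NR medium Relb, Nfkbia and Nfkbiz rose by log2 0.38, 0.48 and 0.34 over control. The calls of Cebpa, Relb and Nfkbiz in 67NR against control were lost without either 67NR library and without control replicate 1 (edgeR adjusted p = 0.0633 to 0.245), and that of Nfkbiz also without control replicate 2 (0.0682). DESeq2 did not call Cebpa or Relb there either (adjusted p = 0.0979 and 0.0614).

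Of 12 tested receptors and partners, 5 rose and 2 fell in 4T1 against control medium (58.3% called, against 39.1% of all genes). In 4T1 against 67NR medium 5 rose and 4 fell (75%, against 43.4%), and in 67NR against control medium 4 rose and 1 fell (41.7%, against 27.6%). Slc22a17, a cell-surface receptor for lipocalin 2, had 7.71 and 9.64 CPM in the 4T1 libraries, 13.8 and 14.2 CPM in the 67NR libraries and 8.88 and 8.4 CPM in the control libraries. The 4T1 libraries lay on both sides of the control libraries and below both 67NR libraries. The log2 difference was 0.01 for 4T1 against control (SE 0.14, edgeR adjusted p = 0.96), whereas it fell by 0.68 in 4T1 against 67NR and rose by 0.69 in 67NR against control. Lrp2, which encodes megalin, another receptor of lipocalin 2, averaged 2.56 CPM in 4T1 and 0.657 CPM in control medium, a rise of log2 1.97. Bdh2, an enzyme studied in mice for making a mammalian siderophore, averaged 1.3 CPM in 4T1 and 5.25 CPM in control medium and fell by 2.00 on the log2 scale.

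Receptors met by serum amyloid A and Lrg1 were mixed. Tlr4, for which serum amyloid A3 has been described as a ligand in mice, had 36.8 and 46.7 CPM in the 4T1 libraries, 26.3 and 29.8 CPM in the 67NR libraries and 25.9 and 24.2 CPM in the control libraries, a rise of log2 0.74 in 4T1 against control. Ager, the receptor for advanced glycation end products, rose by log2 1.07 in 4T1 against control. Its call was lost without 4T1 replicate 1, without control replicate 2 and in DESeq2 (adjusted p = 0.0729 to 0.166). Scarb1, the lipoprotein receptor, averaged 40.0 CPM in 4T1, 17.9 CPM in 67NR and 24.1 CPM in control medium. It rose by log2 0.72 in 4T1 against control and by log2 1.16 in 4T1 against 67NR. It fell by 0.43 on the log2 scale in 67NR against control, a call lost without 67NR replicate 1 and without control replicate 1 (edgeR adjusted p = 0.0664 and 0.068). Tgfbr2 averaged 94.1 CPM in 4T1 and 167 CPM in control medium and fell by 0.83 on the log2 scale, while it rose by log2 0.66 in 67NR against control. Other TGF-beta receptor chains of the list, named after their values were seen, did not fall with it. Tgfbr1 averaged 42.3 CPM in 4T1 and 28.2 CPM in control medium. Eng averaged 208 and 185 CPM there, without a call, and Acvrl1 was not tested. Mmp9, a gelatinase found in complex with lipocalin 2 in human neutrophils, averaged 1.4 CPM in 67NR and 0.141 CPM in control medium and rose by log2 3.14. It fell by 2.19 on the log2 scale in 4T1 against 67NR, a call lost with a 2-fold minimum (edgeR adjusted p = 0.0569). These Mmp9 values stand on 33 and 26 counts in the 67NR libraries, 4 and 6 in the 4T1 libraries and 4 and 1 in the control libraries. Fpr2, a serum amyloid A receptor of leukocytes, and Cd36 had 0 counts in all 6 libraries.

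Marker genes of other cell types that make these proteins were read in the same libraries. Of 10 hepatocyte markers, Apoa1, Cyp3a11, Hnf4a and Ttr had 0 counts in all 6 libraries and Alb had 1 count in all. The hepatocyte list summed to 1.49 and 2.29 CPM in the 4T1 libraries, 1.67 and 1.61 CPM in the 67NR libraries and 1.66 and 1.49 CPM in the control libraries. Apob made up most of this sum, with 1.28 and 1.58 CPM in the 4T1 libraries and 1.61 and 1.49 CPM in the control libraries. Of 11 neutrophil markers, Cxcr2, Elane, Mpo, S100a8 and S100a9 were at 0 in all 6 libraries. The list summed to 1.22 and 1.25 CPM in the 4T1 libraries, 0 and 0.0973 CPM in the 67NR libraries and 0.0519 and 0.223 CPM in the control libraries. Most of this was Camp, an antimicrobial peptide gene, with 11 and 18 counts in the 4T1 libraries, 0 in both 67NR libraries and 1 count in each control library.

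Of 10 macrophage markers, Adgre1, Mrc1 and Tyrobp were at 0 in all libraries, and the list summed to 11.8 and 13.1 CPM in the 4T1 libraries, 16.9 and 16.3 CPM in the 67NR libraries and 9.09 and 10.3 CPM in the control libraries. Its members moved in both directions in 4T1 against control medium, where Cd74 rose by log2 1.89 and Lyz2 fell by 1.33 on the log2 scale. Of 10 epithelial and carcinoma markers, Epcam, Cldn4 and Esrp1 were at 0 in all libraries. That list summed to 2.3 and 1.74 CPM in the 4T1 libraries, 6.16 and 5.89 CPM in the 67NR libraries and 8.98 and 7.66 CPM in the control libraries. The list of 12 stroma markers summed to 1450 and 1583 CPM in the 4T1 libraries, 1092 and 1060 CPM in the 67NR libraries and 915 and 880 CPM in the control libraries. In 4T1 against control medium 4 of its 7 tested genes rose and 2 fell. Vcam1 had 608 and 647 CPM in the 4T1 libraries and 212 and 200 CPM in the control libraries. Pdgfrb went the other way, with 203 and 233 CPM in the 4T1 libraries and 384 and 357 CPM in the control libraries. Markers of RNA quality, 15 mitochondrial and nuclear transcripts, summed to 20340 and 23117 CPM in the 4T1 libraries, 19402 and 22716 CPM in the 67NR libraries and 12803 and 18302 CPM in the control libraries. The sum was higher in each library of the tumour media than in the control libraries, but not every transcript was. In 4T1 against control medium 7 of 14 tested rose and mt-Rnr2 fell by 0.89 on the log2 scale, and in 67NR against control medium 9 of 14 rose and none fell. The part of these transcripts in the differences of the acute-phase genes was not tested. Endothelial markers (8 genes) summed to 37.8 and 36.1 CPM in the 4T1 libraries, 29 and 25.4 CPM in the 67NR libraries and 15.5 and 17.8 CPM in the control libraries. Emcn made up most of this sum, with 34.7 and 33.4 CPM in the 4T1 libraries and 11.7 and 12.6 CPM in the control libraries, and rose by log2 1.49. Kdr fell, with 0.0676 and 0 CPM in the 4T1 libraries and 0.831 and 1.64 CPM in the control libraries, as did Tek, with 0.203 and 0.163 CPM in the 4T1 libraries and 0.934 and 1.04 CPM in the control libraries. Adipocyte markers (7 genes) summed to 20.7 and 19.5 CPM in the 4T1 libraries, 25.8 and 28.5 CPM in the 67NR libraries and 22.9 and 22.4 CPM in the control libraries.

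**Figure D4:**
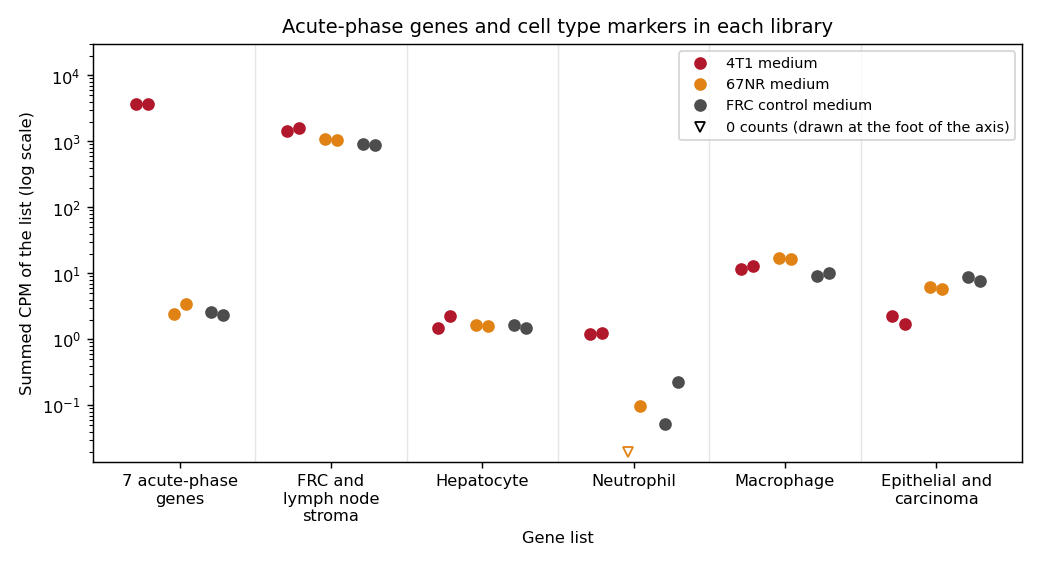
Summed CPM (log axis) of the 7 acute-phase genes and of 5 marker lists in the 6 libraries, 4T1 medium left of 67NR and control medium, each point a library and open triangles at 0. The members sum to 3645 and 3720 CPM in 4T1 medium and to at most 3.41 CPM in the other media, and the hepatocyte list stays between 1.49 and 2.29 CPM in all 6 libraries.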

How the data were processed

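Poly(A) RNA of 6 libraries (500 ng of total RNA, directional kit, NextSeq500, per the labels' protocols) was analysed in 3 groups of 2. The unfiltered table that the authors deposited holds raw counts of reads by gene symbol and was used here. A filtered one repeats its values for 14629 genes, of the 7 genes only Lcn2 and Hp. The submitters' processing notes name Subread, DESeq2 1.32.0 and mm10. The aligner and strand setting were not given in the sources read, so antisense and near-identical genes are uncertain.

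The filter of edgeR 4.0.16 (filterByExpr with a count of 10 and a total of 15 as minima) kept 15055 of 26346 genes with counts, and library totals were adjusted by TMM (trimmed mean of M-values). One quasi-likelihood fit of all 6 libraries (3 residual and 9.62 prior degrees of freedom, biological coefficient of variation 5.81%, prior count 0.125, R 4.3.3) gave all comparisons, with p-values adjusted after Benjamini-Hochberg over the tested genes (threshold 0.05). The standard error of a log2 fold change was its size over the square root of F, and intervals of log2 values and counts are at 95%. A group at 0 was set to 3 counts in all for a lower bound of the fold. Alternatives tried were no filter, DESeq2 size factors, unscaled library totals, the filtered table's genes, a replicate block, each library left out, the compared groups only, limma-voom (limma 3.58.1), DESeq2 1.42.0, a 2-fold minimum, thinning, Saa1 and Saa2 added, and a prior count of 2. Transcript words of 50 bases and gene lengths come from GENCODE M21, which matched 14741 of the tested symbols, and promoters were aligned with Biopython 1.88. The fit was also run on simulated counts, with the same dispersion for all genes and far smaller changes than those of the acute-phase genes in 4T1 medium. That run therefore does not speak for changes as large as theirs.

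The members, lists and naming rule were chosen with earlier results of these data known. The rule named all 7 members, per list and comparison up to 4 called genes of at least 1 CPM with the largest change, 11 genes regardless of value (Il6, Il6ra, Il6st, Osmr, Stat3, Socs3, Cebpb, Cebpd, Nfkbiz, Tlr4 and Slc22a17) and the 3 nearest genes of each member. Genes named as at 0, for how they passed the filter or as other TGF-beta receptor chains are outside it. So are the other cytokines of the list, the markers, and the Orm and Saa relatives.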

Additional observations from a re-analysis of the deposited data

How the results depend on the processing

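The direction of Lcn2, Saa3 and Hp, higher in 4T1 than in either other medium, was the same under all alternatives run, with a log2 range of 10.3 to 10.44 for Lcn2 and 10.67 to 11.67 for Saa3 against control. Of the 6 tested acute-phase genes, 2 were called in either comparison of 4T1 medium with the genes of the filtered table, which holds only 2 of them, and 1 (Hp) was called for 67NR against control with no filter. With each library left out, 4 to 7 were called for 4T1 against control and against 67NR, as fewer or more passed the filter, and 0 to 1 for 67NR against control. The fitted folds of Lrg1, Saa1 and Saa2 moved with the tool because their other libraries are at 0, and are not used. A 2-fold minimum left 24 listed pathway genes called for 4T1 against control, 25 for 4T1 against 67NR and 3 for 67NR against control. With each library left out, 13 to 23 listed genes were called for 67NR against control, against 21 with all, the lowest without control replicate 1. Over all genes, 1039 to 1111 instead of 1951 were called higher for 67NR against control without any 1 of the 4 libraries compared, and 1874 instead of 2995 for 4T1 against control without control replicate 1. A 2-fold minimum left 414 higher and 256 lower for 4T1 against control. Differences near 0 turned sign. For 4T1 against control, Slc22a17 was -0.00067 with DESeq2 size factors and -0.0034 by DESeq2, and with each library left out it ran from -0.18 to 0.14 and Cebpa from -0.18 to 0.27. Il6ra ran from -0.030 to 0.24 in 4T1 against 67NR and Bdh2 from -0.053 to 0.13 in 67NR against control. The cause of these changes was not tested. Whether replicate numbers pair the samples is not in the labels. Deviations of same-numbered libraries correlated at 0.08, 0.02 and -0.05 across genes, so they had little in common, which cannot show that the samples are unpaired. With the replicate number as a block, 6, 6 and 0 of the acute-phase genes were called for 4T1 against control, 4T1 against 67NR and 67NR against control, with 46, 46 and 22 listed genes, and Lifr gained a call as higher for 4T1 against control (log2 0.16, edgeR adjusted p = 0.0483). Depth limits Saa1, Saa2, Orm1 and the low levels of Hp and Saa3 outside 4T1 medium, and 2 libraries a group limit all.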
